A study of Mus musculus with 6 samples.

Results

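Described here is the splicing of 7 genes known for exons regulated by PTBP1, the polypyrimidine tract-binding protein, in mouse intestinal crypt cells. The genes (Pkm, Src, Actn1, Flna, Dlg4, Gabbr1 and Ganab) are a list of names, drawn up with earlier results of these data known, and every splicing event of each gene was taken, whether or not it holds the known exon. All 7 were found among 55331 genes of the deposited gene table, and 43 of the 61715 deposited splicing events belong to them. RNA came from 3 WT and 3 PTBP1_KO libraries, and the question put by the design is what PTBP1 does in regeneration of the intestinal epithelium. WT libraries carried floxed Ptbp1 alleles without Cre (Ptbp1f/f), and PTBP1_KO libraries carried the same alleles with Vil-creER, a tamoxifen-activated Cre recombinase under villin control that acts in intestinal epithelium (Ptbp1f/f;Vil-creER+/-). Both groups were C57BL/6 mice, 60 days old, and both received tamoxifen at 100 mg/kg on each of 2 days, so tamoxifen and the floxed alleles are shared. Cells were taken 20 h after injection 2, from small intestine whose villi had been scraped off, by 2 mM EDTA and a 70 µm strainer. Other cells of the tissue keep Ptbp1, and the labels number the libraries without saying that each is a separate animal, so the authors' p-values may measure only the spread between these samples.

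PTBP1 binds pyrimidine-rich RNA, often in the introns beside an exon, and in most targets it keeps that exon out of the messenger RNA. It is abundant in dividing cells and gives way to its paralogue PTBP2 during neuronal differentiation, which is why many of its best known targets are neuronal or muscle exons that other cells skip. Skipping can change a protein segment, or it can shift the reading frame so that the transcript is sent to nonsense-mediated decay.

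The exon sequences below were read from GENCODE M21 transcripts, on mm10 (GRCm38), and run 5′ to 3′ on the RNA strand. They are shown because every result on splicing turns on whether these stretches were included. Capitals mark the pyrimidine tetramers TCTT and CTCT, which can overlap as CTCTT, in the exon itself.
Pkm exon 9: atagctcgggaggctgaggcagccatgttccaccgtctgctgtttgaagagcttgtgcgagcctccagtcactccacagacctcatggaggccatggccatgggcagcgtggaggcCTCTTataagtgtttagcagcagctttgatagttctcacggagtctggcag
Pkm exon 10: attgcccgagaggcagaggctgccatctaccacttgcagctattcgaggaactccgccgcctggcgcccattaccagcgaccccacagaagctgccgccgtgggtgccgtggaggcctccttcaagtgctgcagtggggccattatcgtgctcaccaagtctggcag
Src N1 exon: gaggaaggtggatgtcag
Actn1 81 nt exon: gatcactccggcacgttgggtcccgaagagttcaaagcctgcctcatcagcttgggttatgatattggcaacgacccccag
Actn1 66 nt exon: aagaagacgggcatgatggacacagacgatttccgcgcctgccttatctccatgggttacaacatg
Flna 24 nt exon: tgtcaatcggaggtcacgggctag
Dlg4 exon 18: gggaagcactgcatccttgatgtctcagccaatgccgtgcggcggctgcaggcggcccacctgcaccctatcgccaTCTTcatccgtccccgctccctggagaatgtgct
Gabbr1 exon 15: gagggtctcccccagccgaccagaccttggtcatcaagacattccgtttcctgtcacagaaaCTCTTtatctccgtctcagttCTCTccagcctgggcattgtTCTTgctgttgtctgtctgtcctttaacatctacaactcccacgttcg
Ganab 66 nt exon: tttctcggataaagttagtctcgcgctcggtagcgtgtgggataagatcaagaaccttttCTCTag

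Gabbr1 exon 15 held more of the tetramers than any other exon shown, with TCTT at 2 places and CTCT at 2, an overlapping pair among them. Pkm exon 9 held the overlapping pair at 1 place, while Pkm exon 10, of the same length, held none on this strand. Dlg4 exon 18 held TCTT once and the Ganab exon CTCT once, and neither tetramer was found in the Src, Actn1 and Flna exons. Such matches are common: 69.2% of the 1547 annotated exons as long as Gabbr1 exon 15 hold at least 1 of the tetramers on the RNA strand (94.8% on either strand), as do 72.8% of exons as long as Pkm exon 9 (96.6%). The shares are 60.3% for the length of Dlg4 exon 18 (90.1%), 46.3% at 81 nt (81.9%), 40.1% at 66 nt (75.9%), 13.6% at 24 nt (35.5%) and 12.0% at 18 nt (28.5%). In Gabbr1 exon 15, C and T made up 64.9% of bases, against a median of 48.3% over exons of its length, and in the Src N1 exon they made up 22.2% against 44.4%. A match is a description of the letters, and the flanking introns, where PTBP1 often binds, were not used here.

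Reading frame divides these exons. The Src, Actn1, Flna and Ganab exons are multiples of 3, with 6 codons in Src N1, 27 and 22 in the Actn1 exons, 8 in the Flna exon and 22 in the Ganab exon. Pkm exons 9 and 10, Dlg4 exon 18 and Gabbr1 exon 15 are not. Pkm exons 9 and 10 are of equal length, so that exchanging them keeps the frame, and 103 of their positions are identical (61.7%) and 64 differ. The GENCODE transcript without Gabbr1 exon 15 and the one without Dlg4 exon 18 are both classed as nonsense-mediated decay. The transcript without the Ganab exon (Ganab-202) is classed as protein coding.

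**Figure D1:**
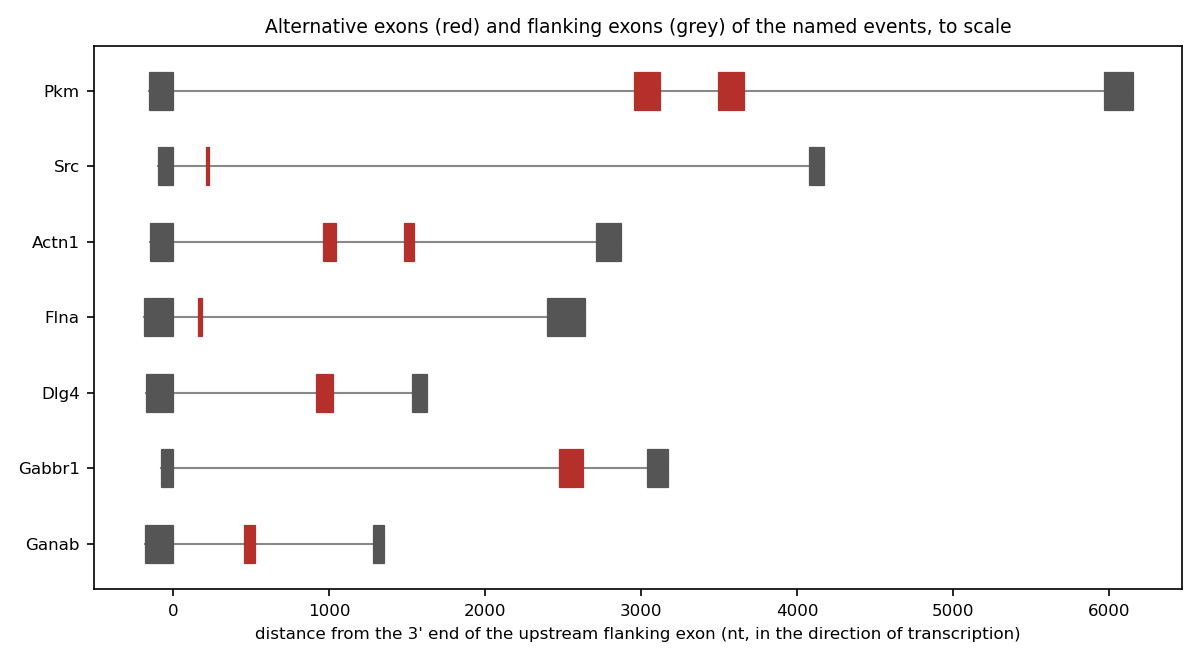
Position of the alternative exons (red) between their flanking exons (grey) in the 7 genes, drawn to scale against distance in nt from the 3′ end of the upstream flanking exon. The Flna and Src exons lie 158 and 209 nt after the upstream exon, while Gabbr1 exon 15 lies 2476 nt after it and 411 nt before the next.

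Splicing was read from the 5 tables of events that the authors deposited in the MATS layout. An inclusion level is the percentage of transcripts, among those that either include or skip a region, that include it. It was computed for each library from the reads of both forms, each divided by its effective length. The tables compare a set 1 with a set 2 of 3 libraries each, without saying in their headers which set is WT and which PTBP1_KO. Splicing is therefore described by set and never by genotype, no test of the sets was run, and each library's value is given beside the authors' own test. The table of skipped exons held 32226951 to 39774266 reads per library. Intervals on inclusion levels are exact 95% Clopper-Pearson intervals and cover counting error only, since reads without molecular identifiers are not independent molecules.

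Of the 43 events, 35 were skipped exons, 5 pairs of mutually exclusive exons, 2 alternative 3′ splice sites and 1 a retained intron, with no alternative 5′ splice site. There were 30 events with 20 or more reads per library on average, here called covered, and the other 13 had means of 1 to 19.2 reads. Coverage followed the gene: 9 of 11 events in Pkm, 8 of 11 in Src, all 3 in Actn1, both in Flna and all 6 in Ganab were covered, but only 2 of 5 in Gabbr1 and 0 of 5 in Dlg4. An event counted as changed when the FDR in the authors' deposited table was below 0.05 and their inclusion level difference was at least 0.1 in size. That held for 2 of the 30, Gabbr1 exon 15 and the 66 nt exon of Ganab (6.67%), against 843 of 53918 covered events of all genes (1.56%). Both had a positive difference, meaning higher inclusion in set 1. Of the 843 changed events of all genes, 543 had a positive difference, which is 1.01% of the 53918 covered events. Of the 6 members with covered events, 2 had a changed one (33.3%), against 617 of 9337 genes (6.61%). Since the list was drawn up with earlier results in view, these shares are a description and no independent evidence.

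Differences under the minimum were counted as well. Without a minimum difference, 8 of the 30 passed FDR 0.05 in the authors' deposited table, against 2027 of all covered events (3.76%). These 8 are not independent either, because 3 of them are events at Pkm exons 9 and 10 that share reads. The library values of the sets did not overlap in 12 of the 30 events (40.0%), 9 with set 1 above and 3 with set 2 above, against 4931 of all covered events (9.15%). These 12 are not independent, because 5 of them are events at Pkm exons 9 and 10 that share reads. The median size of the difference in the authors' deposited table was 0.016 over the 30 events and 0.008 over all covered events. Most of the 30 were near an extreme: in 11 every library was above 95% and in 8 every library was below 5%.

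**Figure D2:**
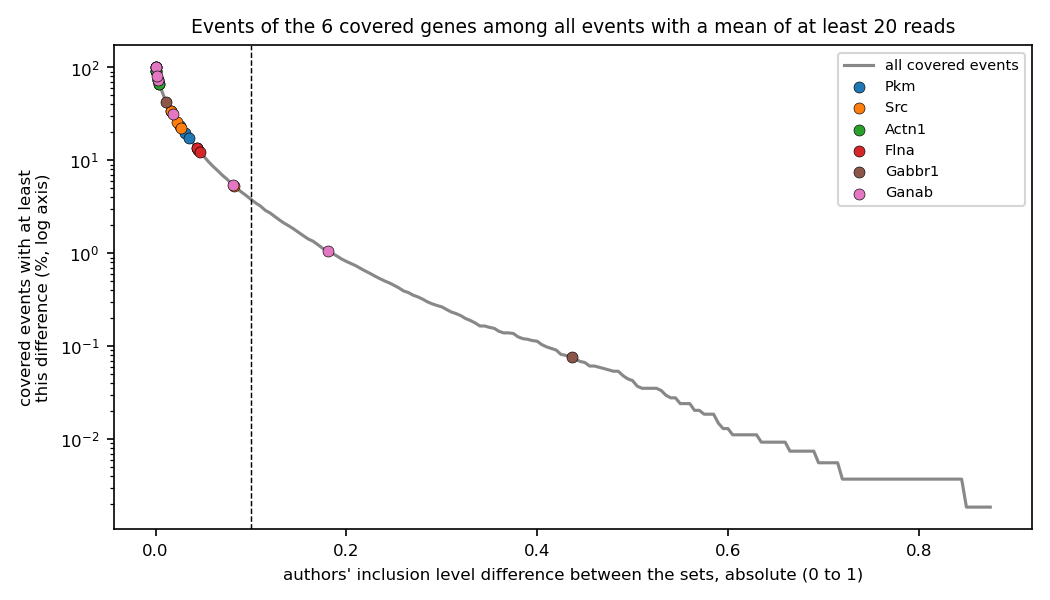
Size of the authors' inclusion level difference between the sets (x axis, 0 to 1) against the percentage of all covered events with at least that difference (y axis, log scale), with the covered events of 6 genes as coloured points and the minimum of 0.1 as a dashed line. Gabbr1 exon 15 lies at 0.437, reached by 0.076% of covered events, and the 66 nt Ganab exon at 0.181, reached by 1.06%, while the Pkm, Src, Actn1 and Flna points all lie to the left of the line.

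The levels of the 7 genes did not pass the authors' test between WT and PTBP1_KO. Levels are given as FPKM (fragments per kilobase of transcript, scaled to library size), a single value for each group, so they have no replicate error and their depth is unknown. In WT the order was Pkm at 229 FPKM, Ganab at 101, Actn1 at 45.0, Src at 22.2, Gabbr1 at 3.83, Flna at 3.01 and Dlg4 at 0.403 FPKM. In PTBP1_KO the order was the same, with Pkm at 235, Ganab at 108, Actn1 at 51.4, Src at 24.1, Gabbr1 at 3.73, Flna at 2.90 and Dlg4 at 0.552 FPKM. Pkm was thus above 97.5% of the tested genes in WT, and Dlg4 above only 11.0%.

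In the authors' deposited table, 0 of the 7 genes passed q < 0.05 by Cuffdiff, 0 had an unadjusted p below 0.05, and all 7 had q = 0.9998; 83 of 15460 tested genes passed (0.537%). The log2 fold changes of PTBP1_KO over WT in the authors' deposited table were 0.04 for Pkm (p = 0.841), 0.10 for Ganab (p = 0.610) and 0.19 for Actn1 (p = 0.308). They were 0.12 for Src (p = 0.411), -0.04 for Gabbr1 (p = 0.864), -0.05 for Flna (p = 0.891) and 0.46 for Dlg4 (p = 0.160) in the authors' deposited table. A p that misses the threshold does not show that the levels are alike. The median log2 ratio over the 7, with 1 added to each FPKM, was 0.10, against 0.02 over all tested genes.

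**Figure D3:**
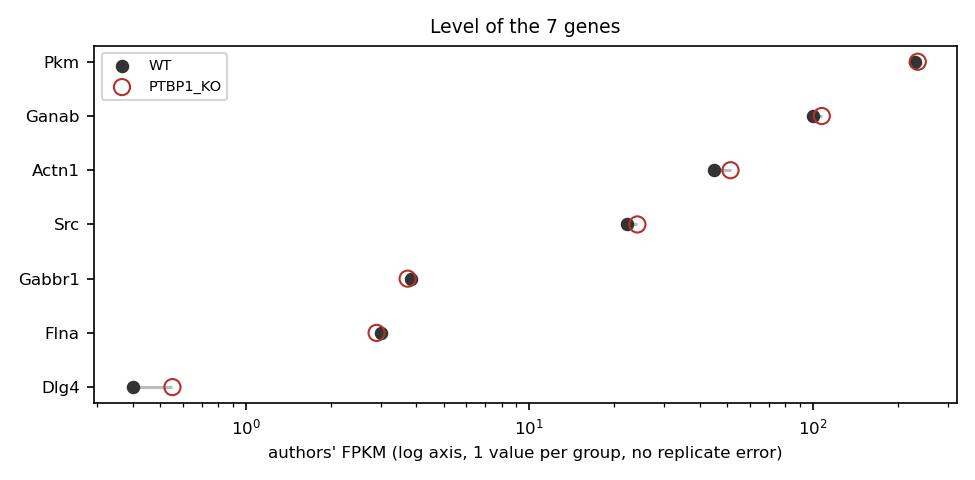
FPKM of the 7 genes in WT (filled points) and PTBP1_KO (open points), on a log axis, with 1 value per group and no replicate error. The genes run from 0.403 FPKM for Dlg4 to 229 FPKM for Pkm in WT, and the order of the 7 genes is the same in PTBP1_KO.

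The epithelial label was checked against marker genes. All 6 epithelial markers, Vil1, Epcam and Cdh1 among them, had at least 85.4 FPKM in each group. The 5 smooth muscle markers summed to 0.519 FPKM in WT and 1.002 FPKM in PTBP1_KO, the 8 markers of neurons and glia to 1.54 and 1.91 FPKM, and every one of these 13 was below 1 FPKM in both groups. The 5 stromal markers summed to 6.23 and 6.86 FPKM, 4 of them below 1 FPKM in both groups, and 3 had an unadjusted p below 0.05 in the authors' deposited table with 0 at q below 0.05. These 3 were Col1a1 at 0.252 FPKM in WT and 0.0997 in PTBP1_KO, Col1a2 at 0.334 and 0.153, and Col3a1 at 0.749 and 0.328, while Vim, at 4.90 and 6.28 FPKM, made up most of the sum. The 4 immune markers summed to 19.5 and 28.7 FPKM, 3 of them with an unadjusted p below 0.05 in the authors' deposited table and 0 with q below 0.05. The part of these cell types in the splicing differences was not tested. In bulk RNA, fewer cells of a type and less RNA per cell cannot be told apart.

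Pkm (ENSMUSG00000032294.17, chr9:59656368-59679375, plus strand) encodes pyruvate kinase, which makes pyruvate in the last step of glycolysis. Exon 9 (chr9:59675029-59675195, coding, in Pkm-202) gives the M1 isoform of differentiated muscle and brain, and exon 10 (chr9:59675568-59675734, coding, in Pkm-201) gives the M2 isoform of most dividing cells. PTBP1 and hnRNP A1 are known to repress exon 9. As a mutually exclusive pair, exon 9 made up 5.28, 4.89 and 6.47% in the libraries of set 1 and 2.603, 2.474 and 2.397% in those of set 2. Exon 10 thus prevailed in all 6 libraries, and the exon 9 share was higher in every library of set 1 than in any of set 2. Exon 9 was seen in 243, 186 and 242 reads in set 1 and in 94, 91 and 117 reads in set 2, beside 3500 to 4764 reads of exon 10. The 95% intervals reached from 4.22 to 7.30% in set 1 and from 1.99 to 3.18% in set 2, so they do not overlap either.

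The inclusion level difference was 0.031 in the authors' deposited table, with FDR = 4.62e-12. It was small beside the minimum of 0.1, so that this pair does not count as changed, yet by p it ranked 15 of 7358 covered pairs in the authors' deposited table. The pair had a mean of 4053 reads per library, the most among the 43 events.

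Other Pkm events cut the same reads differently. Exon 9 as an insertion before exon 10 was at 4.03, 3.68 and 4.88% in set 1 and at 1.76, 1.43 and 1.57% in set 2. The difference was 0.026 with FDR = 1.07e-13 in the authors' deposited table. Exon 10 as an insertion after exon 9 was at 92.5, 93.3 and 91.2% in set 1 and at 95.8, 95.6 and 96.2% in set 2. Here set 2 was above set 1 in all libraries, with a difference of -0.035 and FDR = 4.19e-05 in the authors' deposited table. Reads inside exon 10 and across its junction to the next exon count as inclusion in this event whether or not exon 9 precedes them. In the exon 9 event, reads inside exon 9 and across its junction to the preceding exon count whether or not exon 10 follows. Neither level is therefore a measure of messages that hold both exons.

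Messages that skip both exons were rare. Against that skip, exon 9 was at 100% in each library of set 1 and at 95.6, 93.4 and 98.2% in set 2, and exon 10 at 100% in set 1 and 99.9, 99.8 and 99.95% in set 2. Both had FDR = 1 in the authors' deposited table. The constitutive exon 8 was at 99.9% or more in every library. In their covered events, the annotated alternative exons near the gene's start (184, 155 and 117 nt) were below 0.3% in every library. The 155 and 117 nt exons also have an event each with means of 5 and 7.33 reads per library, too few to describe a level. The 117 nt exon, in its covered event, was at 0.0557, 0 and 0.0934% in set 1 and 0.284, 0.121 and 0.166% in set 2, with set 2 above throughout and FDR = 1 in the authors' deposited table.

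Src (ENSMUSG00000027646.15, chr2:157418444-157471862, plus strand) encodes a tyrosine kinase that relays signals from receptors and adhesion sites. Its N1 exon (chr2:157458843-157458860, coding, in Src-202 and Src-203) inserts 6 codons into the SH3 domain and marks neuronal Src. Inclusion of N1 was 3.53, 2.05 and 4.09% in set 1 and 1.53, 1.60 and 1.76% in set 2. The sets did not overlap, but the gap was narrow, since the lowest library of set 1 lay just above the highest of set 2. These levels rest on 11, 8 and 12 inclusion reads in set 1 and 5, 5 and 6 in set 2, out of 262 to 347 reads per library. Intervals of 0.890 to 7.05% and 0.498 to 3.79% overlapped. The difference of 0.016 had p = 0.0240 and FDR = 0.325 in the authors' deposited table, and did not pass.

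Src also has alternative noncoding exons in its 5′ region. The 106 nt exon (chr2:157431610-157431715, in Src-207) was at 0.935, 0.366 and 1.54% in set 1 and 3.82, 4.16 and 2.91% in set 2. Every library of set 2 was above every one of set 1, on 1 to 7 inclusion reads. Its difference was -0.027 with FDR = 0.0476 in the authors' deposited table. In its covered cassette event, the 108 nt exon (chr2:157424828-157424935, in Src-206) was at 3.17, 8.95 and 4.10% in set 1 and 10.6, 11.9 and 7.18% in set 2. The sets overlapped, with a difference of -0.045 and FDR = 0.168 in the authors' deposited table. Read as a mutually exclusive pair, the 108 nt exon made up 72.1 to 96.4% against the 106 nt exon over the 6 libraries, on a mean of 20.5 reads, with overlapping sets. The 77 and 177 nt exons that follow, also noncoding, were at 95.3% or more as cassettes in every library. As a mutually exclusive pair, the 77 nt exon made up 0.763 to 8.60% against the 177 nt exon, on a mean of 176.7 reads. The sets overlapped for this pair too.

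Actn1 (ENSMUSG00000015143.15, chr12, minus strand) encodes alpha-actinin-1, which crosslinks actin filaments and, in nonmuscle cells, does so under control of calcium. The control lies in an EF hand encoded in part by a pair of mutually exclusive exons. The 81 nt exon (chr12:80170686-80170766, in Actn1-201) is the nonmuscle form and the 66 nt exon (chr12:80170183-80170248, in Actn1-202) the smooth muscle form, which PTBP1 is known to repress. Of the pair, the nonmuscle exon made up 100, 99.1 and 99.5% in set 1 and 99.1, 99.9 and 99.9% in set 2. The sets overlapped, and the difference of -0.001 had FDR = 1 in the authors' deposited table. As a cassette, the smooth muscle exon was included at 0.301, 1.26 and 0.973% in set 1 and 1.10, 0.590 and 0.115% in set 2. The values overlapped fully, on 456 to 637 reads per library, with a difference of 0.003 and FDR = 1 in the authors' deposited table. At this depth no interval reached above 2.25%, so a larger share of the smooth muscle exon was not seen in any library.

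Flna (ENSMUSG00000031328.15, chrX:74223461-74249820, minus strand) encodes filamin A, which joins actin into networks and ties it to membrane receptors. The event listed is a 24 nt coding exon (chrX:74232967-74232990, exon 29 of 47 in Flna-201), and the poison exon known as a PTBP1 target in this gene was not analysed here. Inclusion was 57.8, 44.9 and 48.1% in set 1 and 27.1, 54.8 and 54.8% in set 2. Library 1 of set 2 stood below the rest, and the other 2 libraries of that set lay inside the range of set 1. With 13 to 39 reads per library the intervals ran from 28.1 to 84.2% in set 1 and from 13.7 to 73.6% in set 2, so that a difference of this size was not detectable. The authors' deposited table gave a difference of 0.047 with FDR = 1.

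The other Flna event is an alternative 3′ splice site that lengthens an exon from 204 to 221 nt (chrX:74228321-74228541, in Flna-206, classed as nonsense-mediated decay). The long form was at 4.28, 2.99 and 8.74% in set 1 and 2.99, 0 and 0% in set 2. These are 1, 1 and 3 reads in set 1 and 1, 0 and 0 in set 2, and the libraries at 0 allow a share of up to 6.52 and 7.50% of reads. The difference of 0.043 had FDR = 0.676 in the authors' deposited table.

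Dlg4 (ENSMUSG00000020886.17, chr11:70016942-70047522, plus strand) encodes PSD-95, the scaffold of excitatory synapses. Inclusion of its exon 18 (chr11:70043658-70043767, coding) is needed for the full protein, and PTBP1 and PTBP2 are known to repress it outside mature neurons. The exon had 1 to 8 reads per library, too few to describe a level. Inclusion and skipping reads were 7 and 1, 2 and 2, and 0 and 1 in the libraries of set 1, and 2 and 2, 1 and 0, and 6 and 0 in those of set 2. Both forms were thus seen in both sets. The difference of -0.400 had FDR = 0.187 in the authors' deposited table. A 9 nt shift of a 3′ splice site in Dlg4 passed with FDR = 0.00841 and a difference of 0.333 in the authors' deposited table, but on 1 to 9 reads per library, under the minimum used here. With Dlg4 at 0.403 and 0.552 FPKM, and with the neuronal markers below 1 FPKM, no inclusion level could be given for this gene.

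Gabbr1 (ENSMUSG00000024462.17, chr17:37045966-37075067, plus strand) encodes a subunit of the GABA-B receptor, which binds the transmitter GABA and works as a dimer with the product of Gabbr2. Exon 15 (chr17:37067214-37067364, exon 15 of 23 in Gabbr1-201) is coding, and its repression by PTBP1 outside neurons is known to leave a transcript that is degraded. Inclusion was 51.6, 35.2 and 53.0% in set 1 and 0, 4.13 and 4.65% in set 2. No library of one set came near the other. Inclusion reads were 24, 30 and 30 in set 1 and 0, 3 and 4 in set 2, and skipping reads 11, 27 and 13 against 36, 34 and 40. Coverage was low, at a mean of 42 reads per library, but the intervals of 23.8 to 70.7% and 0 to 12.0% still lay apart. The library at 0 had 36 reads, which allows up to 8.33% of reads.

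For Gabbr1 exon 15 the authors' deposited table gave a difference of 0.437, with p and FDR both listed as 0. Among the 37725 covered skipped exons it ranked 29 by positive difference and 34 by size in the authors' deposited table. The gene's level showed no such gap, with 3.83 FPKM in WT and 3.73 FPKM in PTBP1_KO. The other covered Gabbr1 exon, of 171 nt, was at 96.8 to 100% in all 6 libraries, so the gap at exon 15 was not shared by it. Gabbr2, the partner subunit, was at 0.0469 FPKM in WT and 0.0675 FPKM in PTBP1_KO, and the authors did not test it.

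Ganab (ENSMUSG00000071650.6, chr19:8898071-8916672, plus strand) encodes the catalytic subunit of glucosidase II, which trims glucose from new glycoproteins in the endoplasmic reticulum. Its 66 nt exon (chr19:8907851-8907916, exon 6 of 25 in Ganab-201) is coding and adds 22 codons. Inclusion was 27.9, 30.1 and 38.3% in set 1 and 11.7, 13.8 and 16.4% in set 2. Every library of set 1 was above every library of set 2, and the lowest of set 1 exceeded the highest of set 2 by a wide margin. Inclusion reads were 115, 192 and 243 in set 1 and 51, 61 and 90 in set 2, beside 204 to 306 and 261 to 314 skipping reads. The intervals of 23.4 to 42.6% and 8.80 to 19.9% lay apart.

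The authors' deposited table gave a difference of 0.181 with FDR = 3.10e-12 for this Ganab exon. Both sets spliced a minority of Ganab with the exon, and its share among covered skipped exons was less extreme than that of Gabbr1 exon 15: it ranked 274 by positive difference in the authors' deposited table. A noncoding Ganab exon of 199 nt (chr19:8899196-8899394, in Ganab-205) was at 7.89, 12.2 and 9.63% in set 1 and 3.03, 1.60 and 0.824% in set 2. Set 1 was again above set 2 throughout, with a difference of 0.081 and FDR = 2.08e-13 in the authors' deposited table, just under the minimum difference. A 244 nt exon, nearly always included, was at 100, 98.9 and 99.3% in set 1 and 96.96, 98.6 and 97.3% in set 2. It differed by 0.018 with FDR = 0.0106 in the authors' deposited table. The other 3 Ganab exons were at 99.5% or more (181 and 97 nt) or at 0.0914% or less (109 nt) in all libraries.

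**Figure D4:**
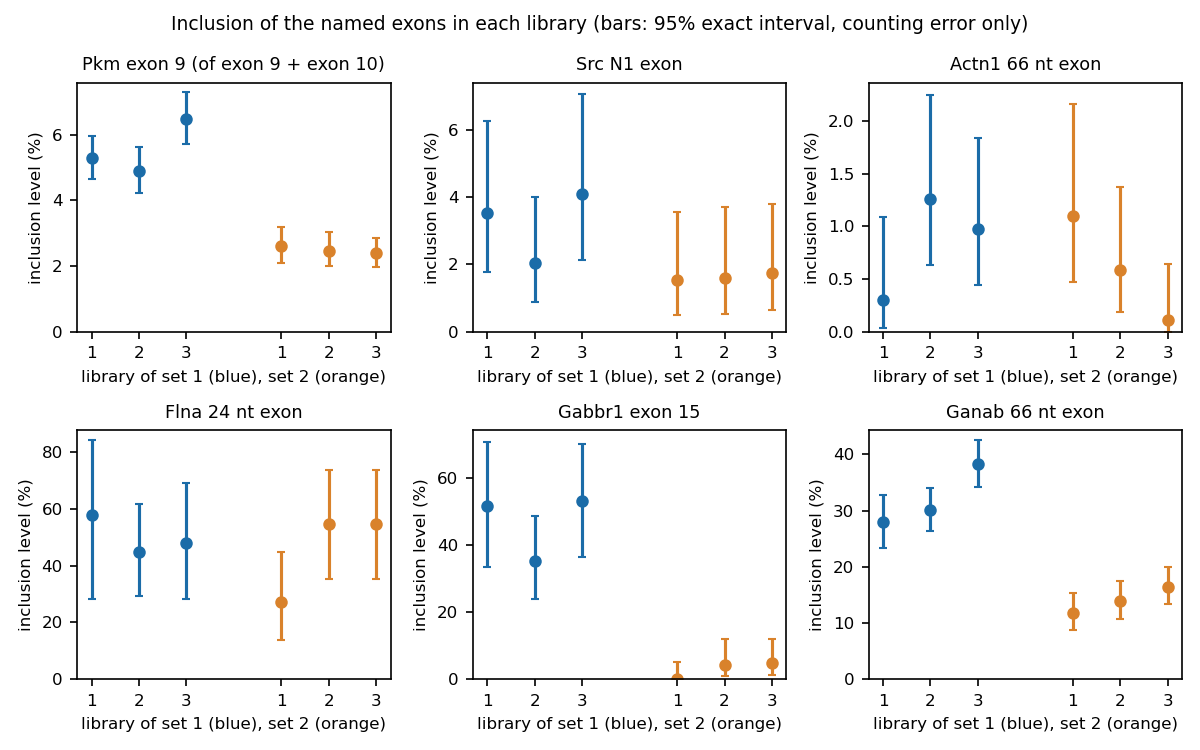
Inclusion level in each library of set 1 (blue) and set 2 (orange) for the Pkm pair and 5 further alternative exons, with exact 95% intervals for counting error; each panel has its own axis from 0. Points of the sets lie apart for Pkm, Gabbr1 and Ganab, lie close for Src N1, at 2.05 against 1.76% between the nearest libraries, and overlap for Actn1 and Flna.

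The order of the libraries within set 1 was compared across genes. Library 3 of set 1 had the highest inclusion of that set for the Pkm pair, Src N1, Gabbr1 exon 15 and the Ganab exon. Library 2 of set 1 was lowest for Pkm, Src N1 and Gabbr1, and library 1 was lowest for Ganab. The order was not shared by the others: library 1 was highest for the Actn1 pair, the Flna exon and the thinly covered Dlg4 exon 18, and library 2 for the 66 nt Actn1 exon. Within set 1 the highest library exceeded the lowest by 1.58 percentage points for the Pkm pair, 2.04 for Src N1, 17.8 for Gabbr1 exon 15 and 10.5 for the Ganab exon. Without any single library, the difference between sets stayed at 2.59 to 3.38 points for the Pkm pair, 1.16 to 2.18 for Src N1, 40.4 to 49.3 for Gabbr1 and 14.99 to 20.2 for Ganab.

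The factors known to act on these exons were read next. Of 15 such genes, 14 were tested, and Ptbp1 alone passed: it fell from 230.0 to 122.8 FPKM in PTBP1_KO, with a log2 fold change of -0.91 and q = 0.0125 in the authors' deposited table. An unadjusted p below 0.05 was listed for 2 of the 14, Ptbp1 and its paralogue Ptbp2, which had 19.0 FPKM in WT and 35.9 in PTBP1_KO, with a log2 fold change of 0.92, p = 0.00135 and q = 0.156 in the authors' deposited table. Hnrnpa1, which acts with PTBP1 on Pkm, had 367.9 FPKM in WT and 345.8 in PTBP1_KO. Srrm4, the neuronal activator of microexons, was below 0.01 FPKM in both groups. The median log2 ratio of the list was 0.01. Of its 13 genes with covered events, 7 had a changed one (53.8%), against 6.61% of all genes with covered events. Among its 159 covered events, 8 changed (5.03%), against 1.56% of all covered events. Inclusion was higher in set 1 for 5 of the 8 and in set 2 for 3. Both Celf1 events are among those higher in set 2 and cover nearly the same stretch, so they are not independent. This list too was chosen with earlier results of these data known, so these shares are no independent evidence. A 34 nt exon of Ptbp2 (chr3:119724612-119724645) was at 86.6, 84.0 and 94.8% in set 1 and 2.58, 3.13 and 5.28% in set 2, with a difference of 0.848 in the authors' deposited table.

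Paralogues and partners of the 7 genes, such as the gene of alpha-actinin-4, were read as a group. Of 15 genes, 11 were tested and 0 passed q < 0.05 by Cuffdiff in the authors' deposited table, with 1 at an unadjusted p below 0.05; the median log2 ratio was 0.05. Of 119 covered events in 10 of these genes, 1 changed (0.840%), against 1.56% of all covered events. Of the 10 genes, 1 had a changed event (10%), against 6.61% of all genes with covered events.

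Other genes with well known PTBP1-regulated exons were set beside the 7. Of 22 such genes, 17 were tested for their level, and 2 fell by q < 0.05 in the authors' deposited table, Ptbp1 and the tropomyosin gene Tpm1 (192.1 to 120.9 FPKM), with 0 higher; the median log2 ratio was 0.03. Of 15 with covered events, 12 had a changed event (80.0%), against 6.61% of all genes with covered events. Among their 115 covered events, 22 changed (19.1%), against 1.56% of all covered events. Inclusion was higher in set 1 for 16 of the 22 and in set 2 for 6. These events are not independent, because some hold the same exon and share reads, as in Anxa7, Tpm1 and Clta. The events of Ptbp1, Ptbp2 and Ptbp3 are also counted among the factors above. The list was written with earlier results of these data known, so these shares are no independent evidence. The difference from the 7 members was not tested.

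Beside Pkm, 15 other glycolysis genes, from hexokinase to lactate dehydrogenase, were read as a group. All 15 were tested and 0 passed q < 0.05 in the authors' deposited table by Cuffdiff, with 0 at an unadjusted p below 0.05. The median log2 ratio was 0.05, with 12 of 15 above 0, against a median of 0.02 over all tested genes. Of 67 covered events in 13 of these genes, 0 counted as changed, against 1.56% of all covered events. With so few events, no contrast with that share is drawn.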

How the data were processed

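Polyadenylated RNA from 3 WT and 3 PTBP1_KO libraries, made with a stranded mRNA kit per the labels' protocols, was analysed from the deposited tables. The submitters' processing notes name Cufflinks, Cuffdiff, STAR 2.6.1d, Trimmomatic 0.38 and bcl2fastq 2.20 with the build mm10; the version and settings of the splicing tool are not given in the sources used here. FPKM values, 1 per group, the log2 fold change of PTBP1_KO over WT, and a p-value and q-value per gene were computed by the authors, per the file headers. The splicing tables hold inclusion and skipping reads per library and, per the file headers, the authors' p-value, FDR and inclusion level difference, set 1 minus set 2. Sets carry no genotype, so the planned descriptive route was used.

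Inclusion levels were recomputed from reads and effective lengths; mean differences matched the authors' to within 0.00112 where every library had reads, and the authors' FDR equals Benjamini-Hochberg adjustment over each table. The formula and intervals were tested on simulated data. The 10 columns of per-library inclusion levels were not used. For mutually exclusive pairs of unequal length, the form lengths showed which exon counts as included: the earlier exon in the direction of transcription, applied also to the equally long Pkm exons. Events needed a mean of 20 reads per library over the 6 libraries. Named events were those called and those holding each gene's known PTBP1-regulated exon by annotation and length, with the short coding exon for Flna. Members, lists and rules were chosen with earlier results of these data known. Some genes of the lists are not reported here by name. Coordinates are 1-based on mm10 and annotation is GENCODE M21. Log2 ratios over lists use FPKM plus 1. Alternatives covered the read minimum, the difference minimum, the FDR, division by length, summing reads, leaving out libraries, the pseudocount, centring and a minimum of 1 FPKM. Tools were matplotlib 3.10.9, pandas 2.3.3, Python 3.11.15, scipy 1.17.1 and numpy 2.4.6.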

Additional observations from a re-analysis of the deposited data

How the results depend on the processing

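The count of 2 changed events became 1 with a mean of 50 reads, which leaves the Ganab exon, 1 with a difference of at least 0.2, which leaves Gabbr1 exon 15, and 8 with FDR below 0.05 and no minimum difference; these settings remove or admit events by construction. With a mean of 10 reads, 20 reads in every library or FDR below 0.01 it was 2. With a difference of at least 0.05 it was 3. Over all genes, 843 events changed by the main rule. That number became 587 with a mean of 50 reads, 313 with a difference of at least 0.2, and 2027 with no minimum difference. A mean of 10 reads gave 992, 20 reads in every library 699, and FDR below 0.01 622. A difference of at least 0.05 gave 1482. The sets did not overlap for 8 of the 11 covered named events, against 9.15% of all covered events. Of these 8, 5 are Pkm events that share reads, and the named events include those called by their difference. Without division by length the count was 8. Leaving out a library (8 to 8) cannot lower this count and says nothing about stability. Over 12 events and 96 alternative values, 91 were classed as the same as the main value and 0 of the called differences changed sign. The class rests on the spread within sets, by a stricter measure than highest minus lowest library. The other 5 came from leaving out the division by length, which gave 57.9 percentage points in place of 43.6 for Gabbr1 exon 15 and 5.27 in place of 2.61 for Pkm exon 9 before exon 10. Against the skip of both exons it gave 2.04 in place of 4.28 for Pkm exon 9 and 0.0538 in place of 0.116 for exon 10, and for exon 10 after exon 9 it gave -1.76 in place of -3.56. Without single libraries the differences that were not called ran from -4.55 to 9.29 points for Flna and from -0.302 to 0.164 for the Actn1 pair. With 0.1 added in place of 1, the log2 ratio of Dlg4 was 0.38 rather than 0.15. The number of genes called stayed at 0 with at least 1 FPKM. Depth limits Dlg4, Flna and Src N1. No paired analysis was possible because the columns of the splicing tables carry no sample names and the gene table has 1 value per group.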
